A study of Mus musculus with 10 samples.

Results

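The 6 receptor genes described here, through which neuropeptides reach ILC2s, are *Nmur1*, *Vipr1*, *Vipr2*, *Calcrl*, *Ramp1*, and *Ramp3*. Accessibility of their chromatin was compared in 5 tissues. A region of the count table was taken when its centre lay inside one of the 6 genes, or when the transcription start site (TSS) nearest to it belonged to one of them. This gave 43 regions of 50039, and all 43 were among the 49981 regions with at least 1 count that were tested. *Vipr2* held 12 regions, *Ramp1* 11, *Calcrl* 9, *Nmur1* 6, *Vipr1* 3, and *Ramp3* 2. The set holds neuropeptide receptors and their partners and no adrenergic receptor.

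ATAC-seq inserts sequencing adapters into open chromatin with a transposase, so that reads gather where DNA is accessible. ILC2s came from lung, pancreas, bone marrow (BM), and both the small (SI) and the large intestine (LI), at the steady state, with 2 libraries per tissue. All libraries came from wild-type C57BL/6 males aged 6 weeks, each from 50000 sorted cells, with 16 mice in a pool for BM, lung, and pancreas and 10 for LI and SI. Lineage-negative cells were sorted by ST2 and CD25 in BM, by these and CD45 and CD127 in LI, lung, and pancreas, and by CD127, Thy1, CD45, and KLRG1 in SI. ST2 was thus part of the gate in 4 tissues and not in SI, and BM cells went through another sorter than the other cells. Lung and pancreas shared gate, sorter, and pool size, and LI shared gate and sorter with both. In comparisons with SI the gate, and in those with BM the gate and the sorter, cannot be told apart from the tissue.

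Neuropeptides are short signals released by neurons and some other cells. NMUR1 is the receptor of neuromedin U and couples to Gq and calcium, and neuromedin U activates ILC2s. VIPR1 and VIPR2 are receptors of vasoactive intestinal peptide and PACAP that couple to Gs and raise cAMP. CALCRL binds calcitonin gene-related peptide (CGRP) when it is paired with RAMP1, and binds adrenomedullin when it is paired with RAMP2 or RAMP3. CGRP restrains the proliferation of ILC2s and changes the cytokines they make. Accessibility of a region is not expression of the gene, and a region may act on a gene other than the nearest. A region open in fewer cells and one less open in each cell cannot be told apart.

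The 4 regions below carry most of what is described, and the central 300 bases of each are shown on the strand of the gene, from RefSeq's GRCm38, the assembly of mm10. Capitals mark motif letters, TGTGGT or ACCACA for RUNX factors, TGANTCA for AP-1, TGATAA for GATA factors, GGAAGT for ETS factors, and GCGTG for AHR. Those of *Ramp1*, *Vipr2*, and *Calcrl* had the smallest F-test p of their gene and lie at *Ramp1* (intron 1, chr1:91193275-91193574, + strand), *Vipr2* (intron 4, chr12:116095511-116095810, + strand), and *Calcrl* (downstream of the gene, chr2:84221233-84221532, − strand). The region upstream of *Nmur1* (chr1:86394355-86394654, − strand) had the largest F-test p of the 43 and is shown for contrast.
Ramp1 +13.6 kb: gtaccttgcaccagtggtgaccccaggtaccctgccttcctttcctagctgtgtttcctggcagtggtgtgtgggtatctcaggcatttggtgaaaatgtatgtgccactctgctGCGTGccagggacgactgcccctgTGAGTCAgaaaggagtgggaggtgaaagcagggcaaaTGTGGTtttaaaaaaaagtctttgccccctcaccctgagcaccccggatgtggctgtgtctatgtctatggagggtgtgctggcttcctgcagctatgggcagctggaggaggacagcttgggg
Vipr2 +17.9 kb: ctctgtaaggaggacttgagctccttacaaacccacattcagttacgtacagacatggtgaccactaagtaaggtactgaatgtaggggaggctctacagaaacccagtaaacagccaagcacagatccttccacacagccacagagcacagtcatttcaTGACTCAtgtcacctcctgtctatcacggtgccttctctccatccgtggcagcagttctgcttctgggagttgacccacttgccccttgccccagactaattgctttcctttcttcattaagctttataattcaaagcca
Calcrl +203.9 kb: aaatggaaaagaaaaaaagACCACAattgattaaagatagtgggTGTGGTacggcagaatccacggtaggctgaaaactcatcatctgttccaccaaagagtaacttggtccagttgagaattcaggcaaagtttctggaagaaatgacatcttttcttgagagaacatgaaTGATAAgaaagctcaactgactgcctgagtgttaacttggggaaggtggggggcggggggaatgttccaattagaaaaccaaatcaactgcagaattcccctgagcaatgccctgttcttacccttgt
Nmur1 -5.1 kb: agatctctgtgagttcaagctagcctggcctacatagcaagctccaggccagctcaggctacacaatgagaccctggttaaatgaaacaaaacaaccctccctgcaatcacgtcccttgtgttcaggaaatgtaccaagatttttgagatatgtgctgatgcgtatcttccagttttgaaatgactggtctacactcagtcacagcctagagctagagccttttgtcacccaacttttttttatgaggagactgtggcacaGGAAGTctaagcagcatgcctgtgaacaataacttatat
Regions are named by the distance of their centre from the TSS of the gene, with a minus sign for upstream. The AP-1 letters of the *Ramp1* window read TGAGTCA and begin at base 140, its RUNX letters begin at base 177, and those of AHR at base 116. The *Vipr2* window held a single motif of those searched, the AP-1 letters TGACTCA at base 161. The *Calcrl* window held RUNX letters at bases 20 and 45 and GATA letters at base 173. These matches describe the letters and do not show that a factor binds.

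Counts per library summed to between 10282987 and 32797872. The label of the cells was checked at promoter regions. All 8 ILC2 genes examined (*Gata3*, *Rora*, *Il1rl1*, *Il2ra*, *Il7r*, *Klrg1*, *Id2*, and *Il17rb*) had such a region, with a median of 58.4 CPM per kb (CPM being counts scaled to a common library size), against 42.4 over all promoter regions, and their sum lay between 458 in SI and 573 in pancreas. Among these ILC2 genes, *Il1rl1* (27.1 CPM per kb over the tissues), *Il7r* (27.8), and *Il17rb* (31.4) lay below the median of all promoter regions. Promoter regions were present for 3 of 4 T cell genes (sums of 11.6 to 24.1 CPM per kb), 1 of 4 B cell genes (2.82 in lung to 15.3 in SI), and 2 of 4 epithelial genes (9.81 to 18.4). The table held no promoter region for the 4 genes each of myeloid cells, mast cells and basophils, ILC3s and ILC1s, and endothelium. Among the genes behind the gates, *Il1rl1* and *Klrg1* were more uneven than *Il2ra* and *Il7r*, which encode CD25 and CD127. *Il2ra* had 37.9 CPM per kb in BM to 64.9 in pancreas, and *Il7r* had 20.9 in SI to 32.4 in LI. *Il1rl1*, which encodes ST2, had 42.0 CPM per kb in pancreas, 39.0 in lung, 35.4 in BM, 13 in LI, and 5.85 in SI, and *Klrg1* had 15.6 in BM and 56.6 to 104 elsewhere.

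Accessibility was uneven among tissues at some of these receptor genes, most of all at *Ramp1*. Of the 43 regions, 25 (58.1%) differed among the 5 tissues (edgeR's quasi-likelihood F-test, Benjamini-Hochberg adjusted p under 0.05), against 44.2% of all regions tested. *Ramp1* had such a difference at 11 of 11 regions, *Vipr2* at 8 of 12 (3 of which did not pass in each fit that left out a library), *Calcrl* at 5 of 9, *Nmur1* at 1 of 6, *Vipr1* at 0 of 3, and *Ramp3* at 0 of 2. *Vipr1* and *Ramp3* also had 0 at an unadjusted p under 0.05 in edgeR and 0 at an adjusted p under 0.05 in DESeq2. By class, 1 of 6 promoter regions passed (30.9% of all promoter regions did), 20 of 25 regions inside a gene (47.0%), and 4 of 12 between genes (48.0%). *Ramp1* gave 10 of the 20 inside a gene, and 6 promoters are too few to set against their share. Regions of a gene lie in the same locus and are not independent of each other. *Ramp1* alone gave 11 of the 25 regions that passed, so the share of 58.1% rests largely on a single locus. The 43 regions had mean levels of 1.67 to 37.7 CPM with a median of 7.69, close to the median of 7.33 over all regions. The tissue with the highest mean was lung at 21 of the 43 regions (14.3% of all regions) and the tissue with the lowest mean was SI at 22 (20.3%). Scaled by library size alone, where the median log2 difference of all regions between tissues reached 0.30 in size (0.06 with TMM), lung was highest at 26 and SI lowest at 15. The median ratio of the highest to the lowest tissue mean was 3.20, against 1.90 over all regions.

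**Figure D1:**
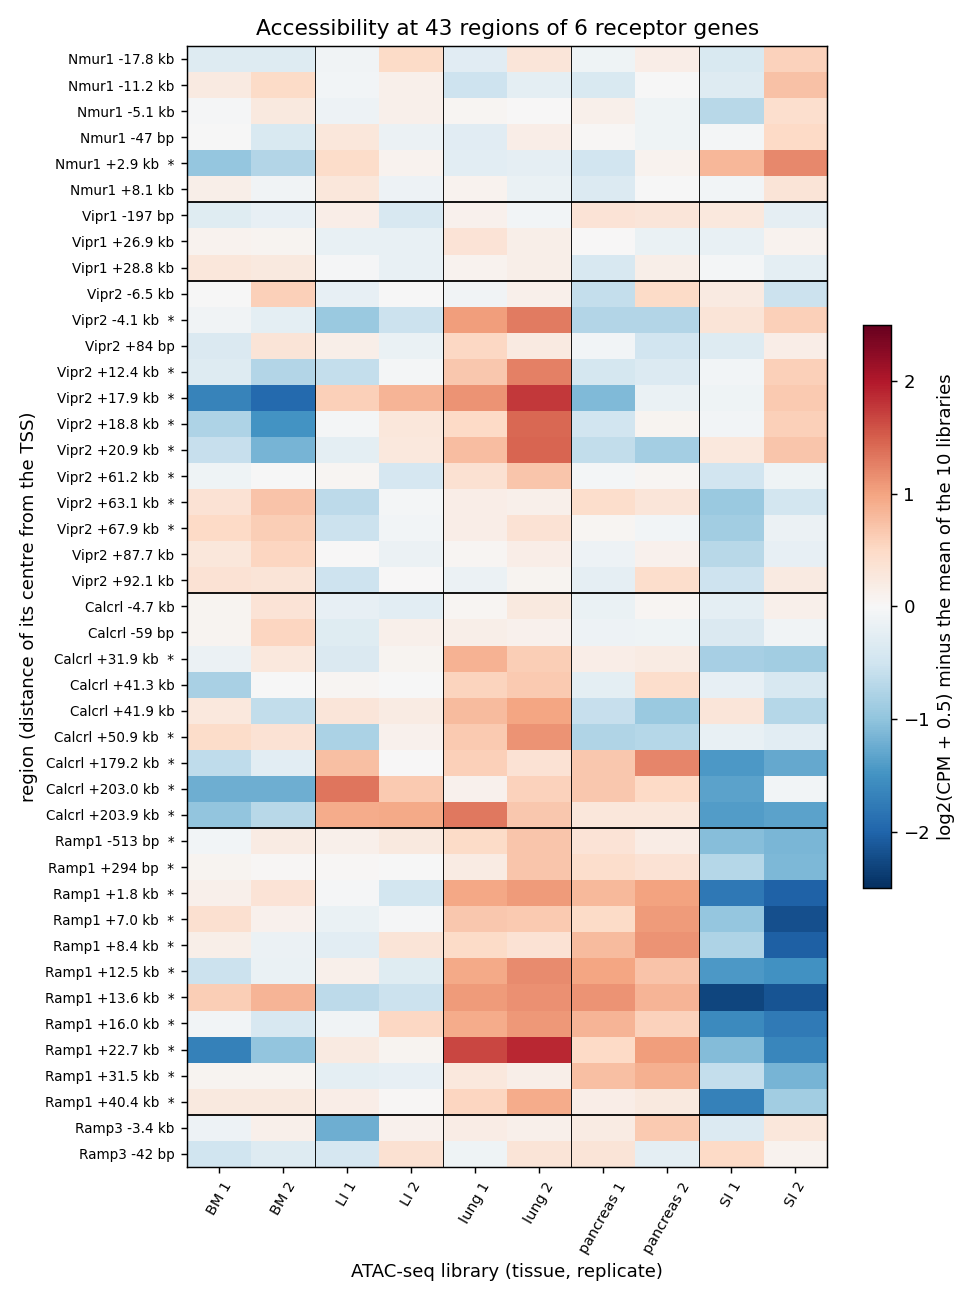
Accessibility at the 43 regions in the 10 libraries, as log2(CPM + 0.5) minus the mean of the region over the libraries, with red for higher and blue for lower values. Rows are ordered by gene and distance, asterisks mark the 25 regions with an adjusted F-test p under 0.05, and the SI libraries are blue along the rows of Ramp1.

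Counts summed over the regions of a gene gave a level per gene and library, a measure that hides regions with opposite orders of tissues. At *Vipr2*, BM had the lowest mean from +12.4 kb to +20.9 kb and the highest at +63.1 kb and +67.9 kb. Of the 6 genes, 3 differed among tissues by this measure, namely *Ramp1* (edgeR, adjusted p = 2.3e-07), *Calcrl* (adjusted p = 0.00176), and *Vipr2* (adjusted p = 0.0299), against 34.2% of the 16807 genes tested. *Ramp1* summed to 180 and 212 CPM in lung, 174 in both pancreas libraries, 109 and 120 in BM, 106 and 109 in LI, and 38.3 and 36.5 in SI. Lung lay next to pancreas, BM next to LI, and SI far below. In log2 terms lung exceeded pancreas by 0.17 (SE 0.13, adjusted p = 0.552), pancreas exceeded BM by 0.60 (SE 0.14, adjusted p = 0.00576), BM exceeded LI by 0.09 (SE 0.14, adjusted p = 0.65), and LI exceeded SI by 1.52 (SE 0.14, adjusted p = 1.3e-05). *Calcrl* summed to 94.8 and 92.7 CPM in lung, 66.5 and 78.4 in LI, 65.2 and 70.7 in pancreas, 55.6 and 72.2 in BM, and 43.6 and 48.7 in SI. Lung was highest and SI lowest without overlap, and lung exceeded SI by 1.02 (SE 0.16, adjusted p = 3.5e-04). Lung passed above BM (0.55, adjusted p = 0.0263), but not above LI (0.37, adjusted p = 0.177) or pancreas (0.47, adjusted p = 0.113). SI passed below LI (0.65, adjusted p = 0.0182) and pancreas (0.56, adjusted p = 0.0256), but not below BM (0.47, adjusted p = 0.0509). *Vipr2* summed to 176 and 212 CPM in lung, 143 and 166 in BM, 138 and 151 in pancreas, 118 and 143 in LI, and 96.6 and 138 in SI, with overlap among the tissues other than lung. Its difference between lung and SI was 0.72 (SE 0.18, adjusted p = 0.0103), which was lost without SI replicate 1 (0.49, adjusted p = 0.0973) and without lung replicate 2 (0.58, adjusted p = 0.146). The call for *Vipr2* over the 5 tissues was lost in 5 of 10 fits that left out a library, with adjusted p values of 0.051 without BM replicate 1, 0.0534 without BM replicate 2, 0.209 without lung replicate 2, 0.051 without pancreas replicate 1, and 0.0513 without pancreas replicate 2.

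The sums of *Nmur1*, *Vipr1*, and *Ramp3* did not pass the test. *Nmur1* had tissue means of 48.7 CPM in BM to 62.8 in SI (edgeR, adjusted p = 0.496), and the SI libraries lay apart at 45.5 and 80.0. Without SI replicate 1, the adjusted p of *Nmur1* was 0.0148. *Vipr1* had means of 27.3 CPM in BM to 36.2 in pancreas (adjusted p = 0.304), and *Ramp3* of 12.6 in BM to 19.8 in pancreas (adjusted p = 0.326). The LI libraries of *Ramp3* lay at 8.76 and 19.5 CPM, and without LI replicate 2 its adjusted p was 0.0307. Per kb of region, which allows genes to be compared, the highest level was that of *Ramp1* in lung (30.5 CPM per kb) and the lowest was that of *Ramp1* in SI (5.81 CPM per kb).

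**Figure D2:**
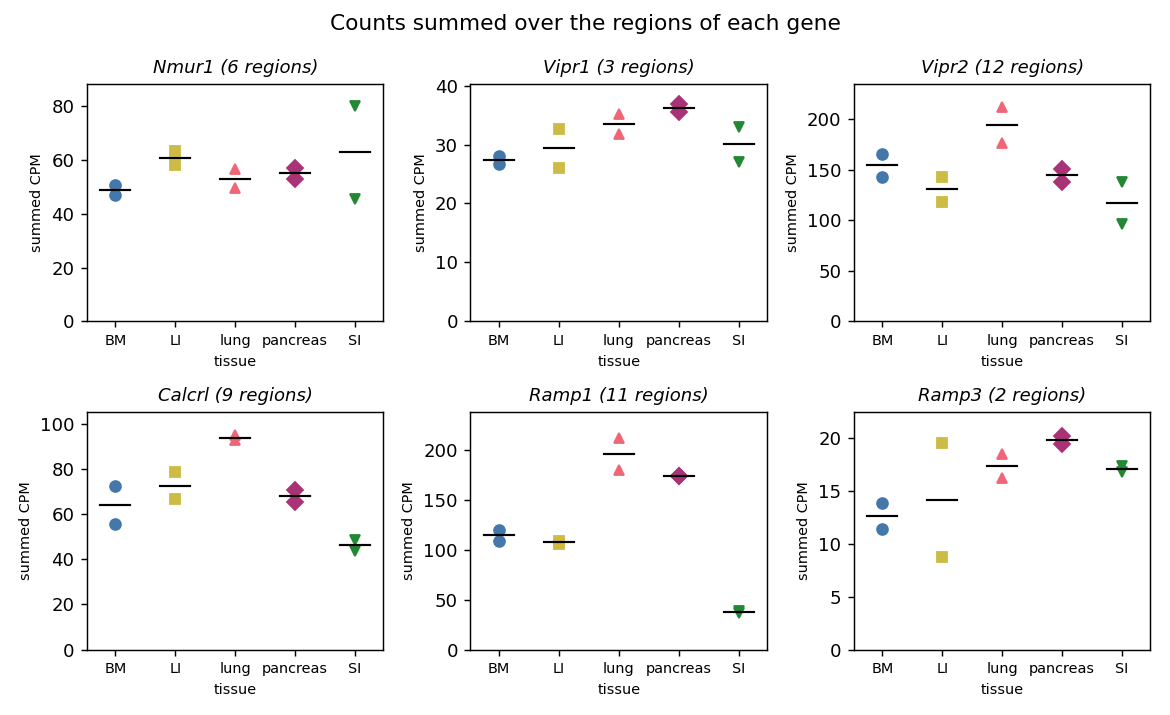
CPM summed over the regions of each gene, by tissue, on linear axes that start at 0. Each symbol is a library and each bar is the mean of 2 libraries. The SI libraries of Ramp1 (38.3 and 36.5) lie below every other library, and those of Nmur1 (45.5 and 80.0) span all other libraries.

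*Ramp1*, the partner that makes CALCRL a CGRP receptor, was less accessible in SI over its whole locus. SI had the lowest tissue mean at 11 of 11 regions, and 10 of them were commonly decreased in SI, which means that they were lower than in each of the other 4 tissues with an unadjusted p under 0.05 (edgeR). Such peaks of SI made up 3.59% of all regions. The exception was the region at +22.7 kb, where BM (0.489 and 1.10 CPM) was as low as SI (1.01 and 0.523). Of these calls, that of the region at +31.5 kb was lost in 9 of the 10 fits that left out a library, and the others held in every such fit. Its difference from LI was 0.80 on the log2 scale (SE 0.38), with an unadjusted p of 0.0497 (adjusted p = 0.203).

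The region at +13.6 kb, inside intron 1 of *Ramp1* (chromosome 1, 91193167 to 91193684), differed most among the 43 by its test (edgeR F-test, adjusted p = 3.1e-07). It had 40.3 and 42.9 CPM in lung, 41.9 and 34.5 in pancreas, 29.6 and 34.9 in BM, 11.9 and 12.9 in LI, and 3.51 and 3.87 in SI. Lung, pancreas, and BM overlapped or lay next to each other, LI lay below them, and SI lay below LI. Along this order, lung and pancreas differed by 0.12 (log2, SE 0.20, adjusted p = 0.779) and pancreas and BM by 0.25 (SE 0.20, adjusted p = 0.386). BM then exceeded LI by 1.38 (SE 0.21, adjusted p = 1.6e-04), and LI exceeded SI by 1.74 (SE 0.22, adjusted p = 1.8e-04). Lung exceeded SI by 3.49 (SE 0.22, adjusted p = 1.4e-07), a ratio of means of 11.3. The *Il1rl1* promoter, a gene of the gate, had nearly the same order of tissues, with pancreas, lung, and BM above LI and SI lowest, and the part of the gate in the *Ramp1* values was not tested.

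At the *Ramp1* promoter (-513 bp, chromosome 1, 91179033 to 91179585), the levels were 20.8 and 24.0 CPM in lung, 18.7 and 16.9 in pancreas, 16.1 and 17.6 in LI, 14.1 and 17.1 in BM, and 6.79 and 6.37 in SI. The promoter was the one promoter region of the 6 genes that passed the F-test (edgeR, adjusted p = 2.0e-04). Lung exceeded SI by 1.77 (log2, SE 0.22, adjusted p = 5.0e-05). No neighbours above SI in the order of tissues differed there, with differences of 0.33 or less, and BM exceeded SI by 1.25 (SE 0.22, adjusted p = 7.2e-04). The region at +1.8 kb in intron 1 (chromosome 1, 91181335 to 91181858) fell more steeply. It had 15.6 and 16.9 CPM in lung, 14.0 and 16.0 in pancreas, 8.56 and 9.94 in BM, 7.58 and 5.52 in LI, and 1.88 and 1.53 in SI (edgeR F-test, adjusted p = 4.2e-06). Lung exceeded SI by 3.26 (SE 0.28, adjusted p = 1.7e-06), and LI exceeded SI by 1.93 (SE 0.28, adjusted p = 5.9e-04).

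The other *Ramp1* regions ranged from a ratio of 2.72 between the highest and the lowest tissue mean at +294 bp, in the first exon, to 13.6 at +22.7 kb in intron 2. At +22.7 kb, lung (9.64 and 11.2 CPM) lay above pancreas (4.0 and 6.04), LI (3.23 and 2.82), BM, and SI, and this was a lung TS OCR, a region higher in a tissue than in each other tissue with an unadjusted p under 0.05. Its excess over pancreas was 1.07 (log2, SE 0.38, unadjusted p = 0.0123, adjusted p = 0.112). The call was lost without lung replicate 2 and without pancreas replicate 1. The region at +40.4 kb lies in intron 2 of *Ramp1* with its nearest TSS at *Ube2f*, a gene for a ubiquitin-like conjugating enzyme, and is counted by its position inside the gene. It had 36.3 and 48.0 CPM in lung and 7.37 and 13.4 in SI. SI libraries held few reads at some of these regions, with 26 and 7 counts at +7.0 kb. Within 200 kb of *Ramp1*, a window chosen after the values had been seen, 26 further regions belonged to other genes. Of these, 10 passed the F-test (44.2% of all regions did) and 2 were commonly decreased in SI (3.59% of all regions).

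**Figure D3:**
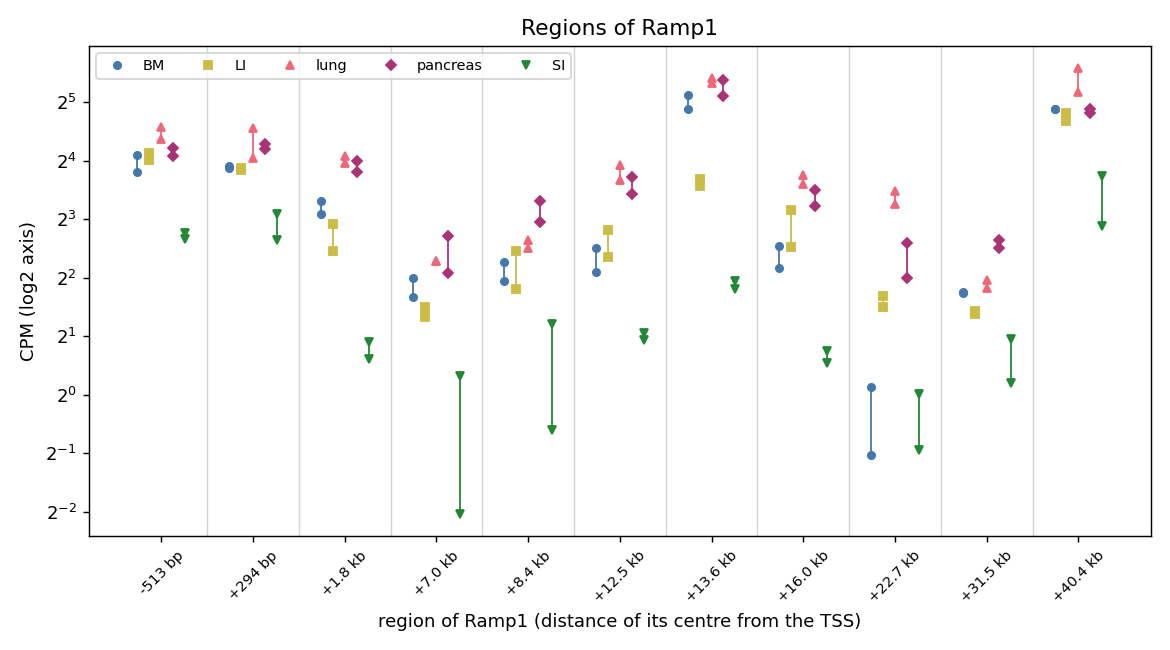
CPM on a log2 axis at the 11 regions of Ramp1, ordered by distance from the TSS, with 2 symbols per tissue for the libraries joined by a line. The SI symbols lie lowest at each region except +22.7 kb, where they lie among those of BM.

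*Calcrl*, the receptor chain for CGRP and adrenomedullin, differed by region. Its promoter (-59 bp, chromosome 2, 84425063 to 84425588) was open in all tissues, with 28.2 and 39.1 CPM in BM, 29.7 and 29.0 in lung, 21.7 and 29.4 in LI, 24.7 and 25 in pancreas, and 20.7 and 25.4 in SI. These groups overlapped, and the F-test was not passed (edgeR, adjusted p = 0.214). BM and SI, the ends of the order, differed by 0.55 (log2, SE 0.22, adjusted p = 0.0776). The region at +31.9 kb in intron 2 (chromosome 2, 84393105 to 84393639) had 21.2 and 17.8 CPM in lung, 12.8 and 13.2 in pancreas, 10.2 and 13.8 in BM, 8.80 and 11.9 in LI, and 6.21 and 5.99 in SI (edgeR F-test, adjusted p = 8.8e-04). Lung was above and SI below all other libraries, and by the pairwise tests the region was both a lung TS OCR and commonly decreased in SI. The smallest differences behind these calls were 0.59 above pancreas (log2, SE 0.25, unadjusted p = 0.0294) and 0.78 below LI (SE 0.25, unadjusted p = 0.00722). The TS OCR call was lost without BM replicate 1, lung replicate 1, pancreas replicate 1, or pancreas replicate 2, and the decrease in SI was lost without LI replicate 2.

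The smallest F-test p at *Calcrl* was that of a region downstream of the gene, at +203.9 kb from the TSS (chromosome 2, 84221101 to 84221665; edgeR F-test, adjusted p = 1.4e-05). It had 14.8 and 9.27 CPM in lung, 11.2 and 11.3 in LI, 6.95 and 7.01 in pancreas, 2.59 and 3.27 in BM, and 1.83 and 1.92 in SI. LI stood with lung here, 0.10 below it (log2, SE 0.28, adjusted p = 0.862), whereas BM stood with SI, 0.64 above it (SE 0.31, adjusted p = 0.146). Pancreas exceeded BM by 1.25 (SE 0.30, adjusted p = 0.00778), and lung exceeded SI by 2.68 (SE 0.31, adjusted p = 1.9e-05). The ratio of the highest to the lowest tissue mean was 6.43 here, 6.80 at +203.0 kb, and 11.1 at +179.2 kb. The neighbouring region at +203.0 kb had 7.85 and 4.74 CPM in LI and 0.930 and 0.920 in BM, and differed among tissues (adjusted p = 0.00199). The region at +179.2 kb had 2.94 and 4.53 CPM in pancreas and 0.289 and 0.383 in SI, and was commonly decreased in SI, a call lost without BM replicate 2. At +50.9 kb, in intron 5, lung (11.4 and 15.9 CPM) and BM (9.84 and 9.25) were highest and pancreas (4.0 and 4.10) lowest (adjusted p = 0.00172). The order of tissues thus changed along the locus, which it did not do for the lowest tissue at *Ramp1*. Of 13 regions of other genes within 200 kb of *Calcrl*, 6 passed the F-test (44.2% of all regions did). Commonly decreased in SI were 0 of the 13 (3.59% of all regions), too few regions to set against that share.

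*Ramp3*, the adrenomedullin partner, had 2 regions, and neither passed the F-test. Its promoter (-42 bp, chromosome 11, 6658227 to 6658756) had 10.5 and 7.73 CPM in SI, 6.70 and 9.25 in lung, 9.25 and 6.04 in pancreas, 5.32 and 9.69 in LI, and 4.99 and 5.75 in BM (edgeR, adjusted p = 0.351). SI and BM differed by 0.76 (log2, SE 0.33, adjusted p = 0.0975). The region at -3.4 kb (chromosome 11, 6654873 to 6655408) had 3.23 and 8.82 CPM in the LI libraries and 6.31 to 13.1 in the others (adjusted p = 0.362). Replicates differed here by as much as tissues did.

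*Vipr2* encodes the receptor chain for vasoactive intestinal peptide with the widest set of regions. Its promoter (+84 bp, in the first exon, chromosome 12, 116077532 to 116078088) had 7.12 to 14.7 CPM over the 10 libraries, with lung (11.9 and 14.7) overlapping BM (7.78 and 12.8) and above the rest (edgeR F-test, adjusted p = 0.36). Lung and pancreas, the ends of the order, differed by 0.66 (log2, SE 0.30, adjusted p = 0.212). Lung had the highest mean at the region at -4.1 kb and at those in introns 2 and 4, though not at -6.5 kb, where BM did (edgeR F-test, adjusted p = 0.805). The one at +17.9 kb in intron 4 (chromosome 12, 116095399 to 116095923) had 12.8 and 20.5 CPM in lung, 8.80 and 10.6 in LI, 5.20 and 9.20 in SI, 2.36 and 4.96 in pancreas, and 1.42 and 1.10 in BM (edgeR F-test, adjusted p = 2.7e-05). Lung lay above and BM below all other libraries. Lung exceeded BM by 3.72 (SE 0.41, adjusted p = 1.5e-05), the ratio of means being 13.2, and pancreas exceeded BM by 1.48 (SE 0.43, adjusted p = 0.0201). Lung and LI (0.78, SE 0.35, adjusted p = 0.171), LI and SI (0.43, SE 0.35, adjusted p = 0.48), and SI and pancreas (1.04, SE 0.38, adjusted p = 0.0648) did not pass in turn.

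The region at -4.1 kb, upstream of *Vipr2* (chromosome 12, 116073364 to 116073864), had 8.66 and 10.5 CPM in lung, 5.06 and 6.17 in SI, 3.67 and 3.27 in BM, 1.83 and 2.56 in LI, and 2.18 and 2.16 in pancreas (edgeR F-test, adjusted p = 1.2e-04). Lung exceeded pancreas by 2.14 (log2, SE 0.33, adjusted p = 0.00187), but did not pass above SI (0.77, SE 0.29, adjusted p = 0.0753). At +20.9 kb in intron 4, lung (8.66 and 14.1 CPM) again lay above SI (5.97 and 8.12), LI (4.01 and 5.95), pancreas (3.0 and 2.48), and BM (3.08 and 1.89). The difference between lung and SI did not pass there (0.69, SE 0.33, adjusted p = 0.159). A different order held at the end of the gene. In the last exon, at +67.9 kb, the most accessible of the 43 regions had 50.9 and 55.8 CPM in BM, 40.8 and 46.5 in lung, 37.2 and 34.2 in pancreas, 24.6 and 34.4 in LI, and 19.6 and 32.7 in SI (adjusted p = 0.0101). That call was lost without BM replicate 2. The region at +63.1 kb in intron 10 likewise had BM highest (29.3 and 37.2 CPM) and SI lowest (11.6 and 16.3; adjusted p = 0.00287). BM thus had the lowest mean at the regions from +12.4 kb to +20.9 kb and the highest at +63.1 kb and +67.9 kb. It passed against the next tissue in the order at +17.9 kb and not at the other regions. The difference from pancreas was 0.15 at +12.4 kb (log2, adjusted p = 0.827), 1.09 at +18.8 kb (adjusted p = 0.0919), 0.16 at +20.9 kb (adjusted p = 0.796), and 0.17 at +63.1 kb (adjusted p = 0.637), and that from lung was 0.29 at +67.9 kb (adjusted p = 0.425). BM was lower than lung by 2.46 at +18.8 kb (adjusted p = 7.4e-04) and higher than SI by 1.25 at +63.1 kb (adjusted p = 0.00126).

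Of the *Vipr2* regions, 3 were lung TS OCRs, at -4.1 kb, +17.9 kb, and +61.2 kb. Each lost this call without at least 1 library, and lung replicate 2 was among those libraries in all 3. At +61.2 kb the call was lost in 5 of 10 fits that left out a library, and the F-test (edgeR, adjusted p = 0.0424) was no longer passed in 7 of 10, with adjusted p values up to 0.367. The F-test at +12.4 kb was not passed without lung replicate 2 (adjusted p = 0.0874). Together with *Calcrl* +31.9 kb and *Ramp1* +22.7 kb, 5 of the 43 regions were lung TS OCRs, against 1.30% of all regions, and none of the 5 passed at an adjusted p under 0.05 in all 4 contrasts. The regions of *Vipr2* at +17.9 kb and +18.8 kb were commonly decreased in BM, 2 of the 43 against 6.63% of all regions. Of 23 regions of other genes within 200 kb of *Vipr2*, 4 passed the F-test, against 44.2% of all regions.

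*Vipr1*, the other receptor of vasoactive intestinal peptide, passed the test over the 5 tissues at none of its 3 regions, in edgeR or DESeq2. Its promoter (-197 bp, chromosome 9, 121641906 to 121643132) had 22.4 and 21.8 CPM in pancreas, 21.0 and 14.8 in SI, 18.9 and 16.6 in lung, 19.7 and 13.2 in LI, and 14.1 and 15.1 in BM (edgeR F-test, adjusted p = 0.301). Pancreas and BM differed by 0.60 (log2, SE 0.25, unadjusted p = 0.0276, adjusted p = 0.0884). This difference passed in edgeR with the trend of GC content and width removed (0.92, adjusted p = 0.017), without SI replicate 1 (adjusted p = 0.0421), and without SI replicate 2 (adjusted p = 0.0418). The other regions, both in the last exon, had 7.41 to 11.0 CPM at +26.9 kb (chromosome 9, 121669317 to 121669859, adjusted p = 0.511) and 3.53 to 5.97 CPM at +28.8 kb (chromosome 9, 121671275 to 121671775, adjusted p = 0.58).

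**Figure D4:**
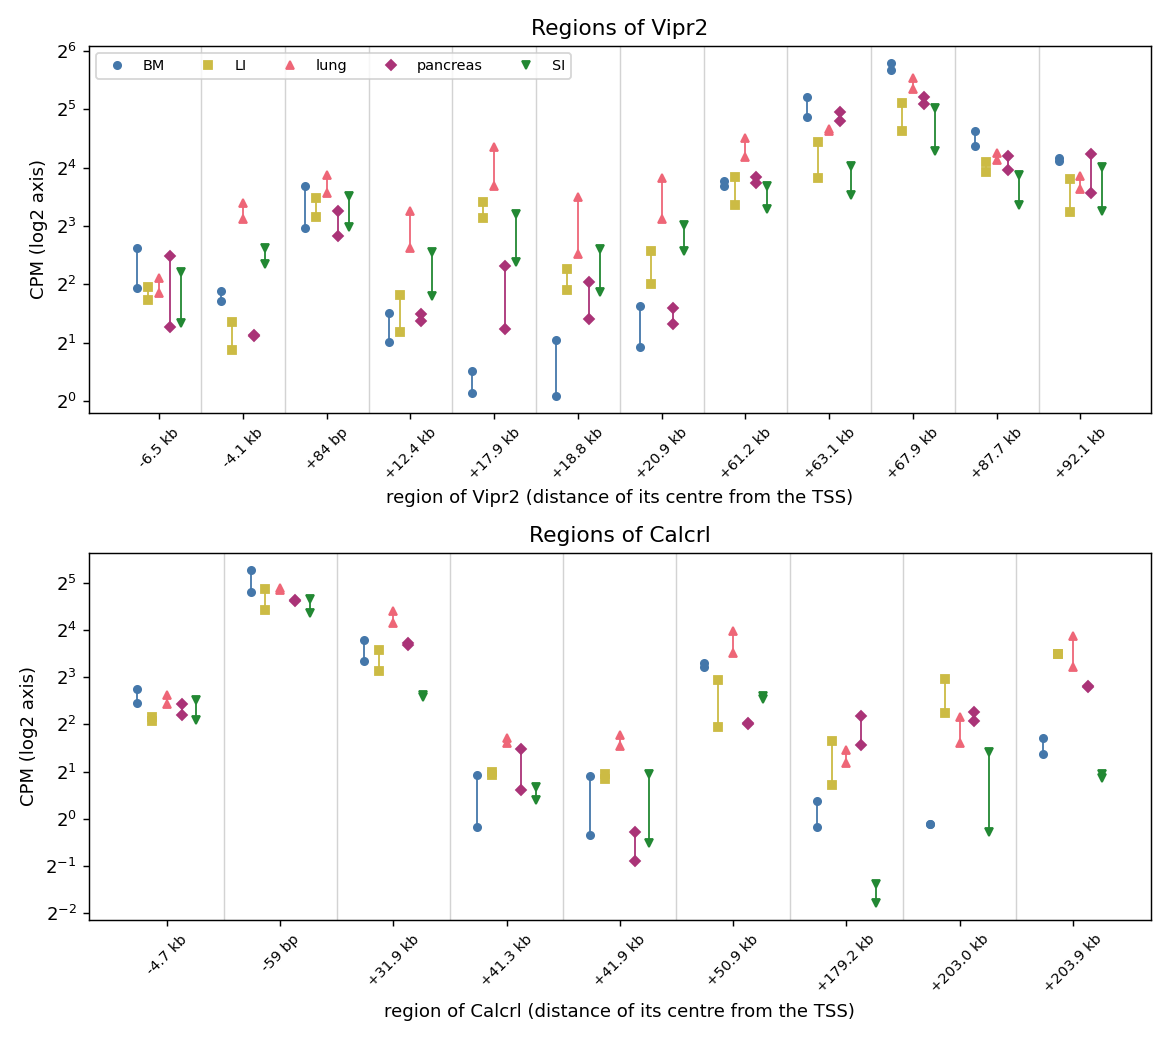
CPM on log2 axes at the 12 regions of Vipr2 (top) and the 9 regions of Calcrl (bottom), ordered by distance from the TSS, with 2 symbols per tissue for the libraries joined by a line. BM symbols are lowest at Vipr2 +17.9 kb and highest at Vipr2 +67.9 kb, and SI symbols are lowest at Calcrl +31.9 kb, +179.2 kb, and +203.9 kb.

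*Nmur1*, the receptor of neuromedin U, passed the F-test at 1 of its 6 regions, which lies inside the gene. The region at +2.9 kb, in coding exon 3 (chromosome 1, 86386227 to 86386731), had 6.88 and 9.09 CPM in SI, 5.23 and 3.91 in LI, 2.47 and 3.88 in pancreas, 2.94 and 3.06 in lung, and 1.61 and 1.98 in BM (edgeR F-test, adjusted p = 9.9e-04). SI lay above and BM below all other libraries. SI exceeded BM by 2.15 (log2, SE 0.35, adjusted p = 3.8e-04) and LI by 0.82 (SE 0.34, unadjusted p = 0.0261, adjusted p = 0.144). It was an SI TS OCR, 1 of the 43 regions against 2.80% of all, and the call was lost without LI replicate 2 and without SI replicate 2. The *Nmur1* promoter (-47 bp, chromosome 1, 86389118 to 86389698) had 6.40 to 12.2 CPM over the libraries (adjusted p = 0.658), and SI and BM differed there by 0.47 (SE 0.29, adjusted p = 0.26). The region at -11.2 kb (chromosome 1, 86400246 to 86400788) had 4.31 to 11.0 CPM (adjusted p = 0.211).

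The region at -5.1 kb, the most accessible of *Nmur1* (chromosome 1, 86394243 to 86394768), had tissue means of 18.7 CPM in SI to 20.6 in BM (edgeR F-test, adjusted p = 0.993). Its SI libraries were the lowest and the highest of the 10, at 11.7 and 25.7 CPM. The SI libraries also differed at -17.8 kb, with 8.57 and 17.2 CPM, and at -11.2 kb, with 5.01 and 11.0 CPM, with SI replicate 2 higher each time. Statements on *Nmur1* in SI at these regions are therefore less certain than their SEs show, since the SEs rest on a spread shared over the tissues.

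The pairs of tissues were then compared over the 43 regions, with an adjusted p under 0.05 in edgeR as the threshold. These counts share libraries between pairs. Lung was higher than SI at 19 regions (44.2%, against 9.86% of all regions), of which 11 were at *Ramp1*, 4 at *Calcrl*, and 4 at *Vipr2*, while SI was higher than lung at 1 (2.33%, against 11.1%), that of *Nmur1* at +2.9 kb. BM was higher than SI at 15 regions (34.9%, against 10.7%) and lower at 4 (9.30%, against 15.1%). Pancreas was higher than SI at 15 (34.9%, against 12.0%) and lower at 3 (6.98%, against 8.45%). LI was higher than SI at 13 (30.2%, against 6.90%) and lower at 1 (2.33%, against 1.53%). In each of these 4 pairs *Ramp1* gave 10 or 11 of the regions lower in SI, so that they describe mostly a single locus.

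In its other pairs lung was higher at more regions than it was lower, and those higher all lay at *Ramp1*, *Vipr2*, or *Calcrl*. By counts summed over a gene (edgeR), lung passed above BM at *Ramp1* (adjusted p = 9.5e-04) and *Calcrl* (adjusted p = 0.0263). It passed above LI at *Ramp1* alone (adjusted p = 8.0e-04). Between lung and pancreas no gene passed, with adjusted p values of 0.113 at *Calcrl*, 0.209 at *Vipr2*, and 0.552 at *Ramp1*. Lung was higher than BM at 11 regions (25.6%, against 11.5% of all regions), 5 of them at *Vipr2*, and lower at 0 (7.56% of all), with 1 at an unadjusted p under 0.05 in edgeR and 0 in DESeq2. It was higher than LI at 9 (20.9%, against 2.72%), 4 at *Ramp1*, 3 at *Vipr2*, and 2 at *Calcrl*. It was lower than LI at 0 (8.18%), with 0 at an unadjusted p in edgeR and 0 in DESeq2. It was higher than pancreas at 6 (14.0%, against 1.62%), 4 at *Vipr2* and 2 at *Calcrl*, and lower at 0 (4.20%), again with 0 at an unadjusted p in edgeR and 0 in DESeq2. The remaining pairs were closer to the background. LI was higher than BM at 7 regions (16.3%, against 18.3%) and lower at 3 (6.98%, against 12.6%). Pancreas was higher than BM at 7 (16.3%, against 14.3%) and lower at 1 (2.33%, against 9.89%). Pancreas was higher than LI at 2 (4.65%, against 1.25%), both at *Ramp1*, and lower at 1 (2.33%, against 2.01%). No region of *Vipr1* or *Ramp3* passed in any pair in edgeR.

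The tissues without calls at these genes were counted in the same way, though 43 regions are too few to set an absence of calls against such small shares. Neither BM (4.50% of all regions), LI (1.30%), nor pancreas (1.43%) had a TS OCR among the 43 in edgeR, where the threshold is an unadjusted p, and commonly decreased peaks were likewise absent in LI (0.132%), lung (1.72%), and pancreas (0.572%). In all, edgeR gave 6 TS OCRs and 14 commonly decreased peaks among the 43 regions, and DESeq2 gave 6 and 13.

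For the region of each gene with the smallest F-test p, the regions of other genes with the most similar profile were sought over the 10 libraries, by Pearson's r of log2 CPM. The libraries share tissue and depth, and the values are a description. *Ramp1* +13.6 kb was closest to a region near *Edn3*, which encodes endothelin 3, with r = 0.994 and 43.6 CPM in lung, 39.2 in pancreas, 33.6 in BM, 14.7 in LI, and 4.23 in SI. A region near *Gm14321* followed (r = 0.993). *Vipr2* +17.9 kb was closest to regions at *Atxn7l1* (r = 0.984), *Krt222* (r = 0.976), and *Slc15a3* (r = 0.976). Among the regions most similar to *Calcrl* +203.9 kb were those at *Abtb2* (r = 0.976) and *Mthfs* (r = 0.971). *Nmur1* +2.9 kb was closest to a region inside *Insr*, the insulin receptor gene (r = 0.988), which had 20.5 CPM in SI and 0.685 in BM, and to regions at *Nedd9* (r = 0.983) and *Cycs* (r = 0.966). For the flatter genes, *Ramp3* -42 bp was closest to a region at *Il16* (r = 0.951) and *Vipr1* -197 bp to one at *Gm13807* (r = 0.90).

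Other genes of these pathways were counted from lists of ligands, related receptors, and signalling proteins, by the nearest TSS. Of 9 ligand genes, 5 had a region, and *Nmu*, *Nms*, *Vip*, and *Iapp* had none. Of the 15 ligand regions, 5 passed the F-test, at *Calca* (2 of 6), *Adm* (2 of 5), and *Adm2* (1 of 1). *Calca* is a gene of CGRP, and its region at -10.0 kb had an adjusted p of 4.4e-06 (edgeR). The 1 region of *Calcb*, the other CGRP gene, did not pass (edgeR, adjusted p = 0.0717). *Adm* encodes adrenomedullin. Of 10 related receptor genes, 5 had a region and 1 of their 6 regions passed, that at *Gipr* (adjusted p = 0.0336). *Ramp2*, the third partner of CALCRL, had 1 region, at its promoter (adjusted p = 0.795). Of 79 regions at 16 genes of the Gs and cAMP pathway, 34 (43.0%) passed, and of 126 regions at 16 genes of the Gq and calcium pathway, 64 (50.8%) passed, near the 44.2% of all regions. *Itpr1*, a calcium channel of the endoplasmic reticulum singled out after its values were seen, passed at 14 of 14 regions. Of these, 9 were commonly decreased in BM (6.63% of all regions), and all 14 belong to a single gene and are not independent. Of 15 regions at 6 genes of receptor desensitisation, kinases and arrestins, 8 passed.

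Short motifs were counted on both strands in the central 500 bases of each region. RUNX letters (TGTGGT) were in 24 of the 43 regions (55.8%), against 39.1% of all regions, and ROR letters (AGGTCA) in 15 (34.9%, against 27.7%). GATA letters (AGATAA or TGATAA) were in 16 (37.2%, against 36.7%), 6 of them at *Calcrl* and 5 at *Ramp1*, and 5 copies stood in *Calcrl* +31.9 kb. ETS letters (ACTTCC) were in 14 (32.6%, against 37.2%), AHR letters (GCGTG) in 11 (25.6%, against 40.2%), and AP-1 letters (TGANTCA) in 5 (11.6%, against 23.2%). The AP-1 letters were at 4 *Vipr2* regions and at *Ramp1* +13.6 kb. The CRE (TGACGTCA), the site of cAMP-responsive factors, was in 0 of the 43 and in 1.70% of all regions. Over all regions such shares vary with the class of region. AHR letters were in 68.6% of promoters, 36.0% of regions inside genes, and 29.5% of regions between genes. Of the 43 regions, 6 were promoters, and the part of class in their shares was not tested.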

How the data were processed

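ATAC-seq libraries of ILC2s from 5 tissues were analysed, 2 per tissue, grouped by the tissue in the labels. The authors mapped reads to mm10 with Bowtie2 2.2.9, kept unique alignments, called peaks with MACS2 2.1.1 in each library, kept those present in both replicates, merged the tissues, and counted reads. The deposited values are raw counts per merged region, without normalization. Neither removal of duplicates nor a transposase shift is given in the sources used here, and such steps would change counts. Reads are not independent molecules.

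Regions with at least 1 count were fitted with edgeR 4.0.16 (TMM, glmQLFit, glmQLFTest) in R 4.3.3, with tissue as the factor and 10 libraries. p-values were adjusted by Benjamini-Hochberg over all regions of a contrast. CPM were computed from TMM-scaled library sizes. DESeq2 1.42.0, which the authors used, was an alternative. The procedure was tested on simulated data. Curated RefSeq models of GRCm38 gave TSSs, with promoters from 1000 bases upstream to 100 downstream. The table does not say whether starts count from 0 or 1. Described in full are each gene's promoter region and its 2 other regions with the smallest F-test p; others are named where a sentence needs them, and were chosen after their values were seen. The 6 genes and all lists were chosen with earlier results of these data known. Replicates are biological duplicates by the labels. The p-values weigh tissue differences against a spread between replicates that is shared over the tissues and moderated over all regions. Each library is a pool of mice, so the spread between single mice is not measured. Alternatives are given in the closing section. Some regions of other genes with similar profiles are not reported here.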

Additional observations from a re-analysis of the deposited data

How the results depend on the processing

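The number of regions of the 6 genes differing among tissues was 25 and lay between 24 and 27 under the other scalings, filter, tools, and definitions, and between 23 and 27 with a library left out. Commonly decreased peaks (14) lay between 11 and 17. TS OCRs (6) were the least stable count, at 12 with library size alone, 10 with edgeR on the 4 libraries of each pair, and 0 with an adjusted p in each contrast (edgeR; 6 at the unadjusted p, and 6 with DESeq2), and between 2 and 9 with a library left out, with 2 without lung replicate 2 and 3 without pancreas replicate 1. The cause was not tested. Genes differing by summed counts (3) numbered 2 to 4 with a library left out, and 3 otherwise. At 17 regions described in full, 262 of 272 alternative values of the log2 fold change kept their direction and side of the threshold, 10 passed where the main value did not, and 0 reversed. The 10 lay at Calcrl -59 bp, Nmur1 -11.2 kb, Vipr1 -197 bp, and Ramp3 -42 bp.

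The labels do not say that equal replicate numbers pair libraries. Correlations of replicate differences between tissues lay between -0.218 and 0.196 and exceeded 0.1 for LI with BM (0.125), lung (0.155), and SI (0.196) and for lung with SI (0.175), so the numbers were not treated as pairs. With the replicate number as a block, 27 regions, 9 TS OCRs, 13 commonly decreased peaks, and 3 genes passed. With 2 libraries per tissue, a fit without a library leaves a tissue with 1, which is assumed to vary like the others. Levels near 1 CPM rest on few reads, with counts per library from 5 to 1738 at the 43 regions.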
